A study of Mus musculus with 6 samples.

Results

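The myeloid-linked mouse microRNAs (miRNAs) mmu-miR-146a, mmu-miR-146b, mmu-miR-146b*, mmu-miR-223 and mmu-miR-511 were followed in pro-B cells of adult bone marrow and fetal liver. They were taken by name, every probe whose miRNA has the stem miR-146a, miR-146b, miR-223 or miR-511, and make up 5 of the 567 mouse miRNAs and 14 of the 1672 mouse probes on the array. MiR-146a and miR-223 were higher in bone marrow on both of their probes. MiR-146b was dim on all 6 arrays, miR-146b* was not well above background on any of them, and miR-511 lay near the limit of detection in both tissues.

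Fr. B/C is a sort gate for pro-B cells, B cell precursors that are rearranging the immunoglobulin heavy chain locus. The mice were BALB/c, with no transgene or treatment named in the labels and no age given for the adults. Adult bone marrow gave 3 sorts, each from the flushed femurs and tibias of 3 female mice pooled. Fetal liver at day 16 of gestation gave 3 sorts, each from the pooled embryos of 1 litter, 8 embryos on average. Each sort was hybridised as 100 ng of Cy3-labelled total RNA to 1 one-colour Agilent miRNA array, so the groups are 3 adult bone marrow arrays and 3 fetal liver arrays. The study is about Lin28b, which binds RNA and blocks let-7 maturation in fetal blood progenitors, and the comparison asks which miRNAs differ between adult and fetal pro-B cells.

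MiRNAs are short RNAs that bind messenger RNAs mainly through the bases near their 5′ end, the seed, and lower the output of those messages. MiR-146a is transcribed in response to NF-kB. MiR-146a and miR-146b lower the adaptor TRAF6 and the kinase IRAK1 of Toll-like and interleukin-1 receptor signalling. MiR-223 is abundant in granulocytes and monocytes, where it is induced by myeloid transcription factors and restrains neutrophil expansion and activity in mice. MiR-511 is processed from an intron of Mrc1, the mannose receptor gene of macrophages.

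The mature sequences, shown because they tell which members share a seed, are from RefSeq (GRCm38.p6), 5′ to 3′, with the seed (bases 2 to 8) in capitals:
mmu-miR-146a-5p: uGAGAACUgaauuccauggguu
mmu-miR-146b-5p: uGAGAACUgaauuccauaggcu
mmu-miR-146b-3p: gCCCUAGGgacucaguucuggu
mmu-miR-223-3p: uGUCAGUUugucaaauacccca
The seed GAGAACU occurs in 2 of the 1679 mature mouse miRNAs of that table, miR-146a-5p and miR-146b-5p. Over their 22 bases these differ at 2 positions counted from the 5′ end, G18A and U21C, with the base of miR-146a-5p first. The seed GUCAGUU of miR-223 and the seed CCCUAGG of the other arm of miR-146b each occur in 1 mature mouse miRNA of the table. The array's miR-146b* was matched to miR-146b-3p, since its probes end 38 bases from those of miR-146b in mm9 and the mature 3′ ends lie 38 bases apart in GRCm38.p6. The array names miR-511 without an arm, and no sequence is given for it.

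The members come from separate loci. In GRCm38.p6 the hairpin Mir146 lies on the minus strand of chr11:43374397-43374461 and overlaps no other annotated gene. Mir146b, at chr19:46342762-46342870 on the plus strand, overlaps the long non-coding RNA gene Gm36493. Mir223, at chrX:96242817-96242926 on the plus strand, overlaps the long non-coding RNA gene F630028O10Rik. Mir511, at chr2:14261003-14261081 on the plus strand, overlaps the protein-coding gene Mrc1. The strand of the overlapping genes was not compared.

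Signal over background differed between arrays. Between 18.4% and 23.7% of mouse spots were well above background, Feature Extraction's call of a spot clearly above its background, on 5 arrays, against 7.02% on fetal liver sort 2. The negative control spots of that array had an SD of 12.1, against 2.65 to 4.13 on the other 5. Its dimmest probe well above background read 58.7 before scaling, against 12.9 to 15.0 elsewhere, and the 1298 probes well above background on no array had a median of -15.4 there, against -1.09 to -0.17. Results that rest on this array are therefore also given without it. All 6 arrays were on 1 slide and 1 scan, with the bone marrow arrays in the first row of the slide and the fetal liver arrays in the second row, so slide row and tissue cannot be told apart. Signals were scaled between arrays with factors of 0.577 to 1.70, raised to a common floor of 15.5 and put on the log2 scale, where the floor is 3.95. Values at the floor have no order.

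A test was made of the 134 miRNAs that passed background on all 3 bone marrow or all 3 fetal liver arrays. Of these, 15 were called higher in bone marrow, 11.2%, and 14 lower, by limma with a Benjamini-Hochberg adjusted p under 0.05. MiR-146a and miR-223 were among the higher ones, with the second and the sixth largest differences in the direction of bone marrow. The floor moves these ranks, to 1 and 15 with a floor of 1 and to 4 and 6 with the floor doubled, and by size in either direction they were 2 and 10. Both entered the test through the bone marrow arrays, where they were bright, so their number among the calls carries no weight of its own. The median difference of all 134, bone marrow minus fetal liver, was -0.25 on the log2 scale. In sorted cells taken as bulk RNA, more cells carrying a miRNA and more of it per cell cannot be told apart.

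MiR-146a, the NF-kB-induced member, was read by a probe of 19 bases (mm9 chr11:43187937-43187955) and a probe of 18 bases (mm9 chr11:43187937-43187954). These are nested on the same sequence and are not independent measurements. On the longer and brighter probe the background-subtracted signal was 296, 251 and 285 on bone marrow sorts 1 to 3, against 14.3, -20.0 and -0.32 on fetal liver sorts 1 to 3. All bone marrow arrays lay far above all fetal liver arrays, and it was well above background on 3 of 3 bone marrow arrays and on 1 of 3 fetal liver arrays, sort 1, with 6 of its 10 spots there. After scaling, the log2 level was 7.96, 7.18 and 8.05 in bone marrow, against 4.38 in fetal liver sort 1 and the floor in sorts 2 and 3.

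The mean log2 level of miR-146a was 7.73 ± 0.48 in bone marrow, against 4.09 ± 0.25 in fetal liver (SD, n = 3 each), a difference of 3.64 ± 0.30 (SE, limma, Benjamini-Hochberg adjusted p = 5.71e-04). That is 12.4-fold higher in bone marrow, with a 95% interval of 7.58 to 20.4-fold, and higher on 3 of 3 bone marrow arrays than on any fetal liver array. A log2 level of every bone marrow array above every fetal liver array was found in 18.7% of tested miRNAs. Because 2 of the 3 fetal liver values lie at the floor, the size depends on it. The fetal liver SD, the p-value and the interval rest partly on it too. With the floor at 1 the difference was 6.27 and with the floor doubled 2.78, against 3.57 without fetal liver sort 2, and each kept a limma adjusted p under 0.05, between 0.00320 and 0.0217.

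The 18-base probe of miR-146a was dimmer. Its signal was 63.6, 44.8 and 56.7 in bone marrow, against 1.25, -22.2 and -1.41 in fetal liver. It was well above background on all 3 bone marrow arrays and on none of the fetal liver arrays, and the groups did not overlap. The scaled mean was 44.0 ± 15.8 in bone marrow, against -12.4 ± 22.0 in fetal liver (SD, n = 3 each). With only an upper bound in fetal liver, the level was at least 1.45-fold higher in bone marrow. This sets the mean log2 level in bone marrow, 5.38, against 4.85, the mean over the fetal liver arrays of the log2 of the higher of the probe's own signal and the dimmest signal well above background there. On fetal liver sort 2 that limit is 99.9 on the scaled signal, above every bone marrow value of the probe, and without that array the bound was 2.69-fold. In the fit over all 253 tested probes its log2 difference against the floor was 1.43 ± 0.33 (SE, limma, adjusted p = 0.0242), with all 3 fetal liver values at the floor. The call was lost with the floor doubled (0.52, limma adjusted p = 0.288) and without bone marrow sort 1, bone marrow sort 3, fetal liver sort 1 or fetal liver sort 2 (1.25, 1.27, 1.43 and 1.43, limma adjusted p between 0.0699 and 0.140).

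MiR-223, the granulocyte and monocyte member, had a probe of 21 bases (mm9 chrX:93438224-93438244) and a nested probe of 20 bases (mm9 chrX:93438225-93438244). On the brighter 21-base probe the background-subtracted signal was 295, 385 and 446 on bone marrow sorts 1 to 3, against 70.9, 32.1 and 70.3 on fetal liver sorts 1 to 3. The lowest bone marrow array was above the highest fetal liver array. The probe was well above background on 3 of 3 bone marrow arrays and on 2 of 3 fetal liver arrays, with 0 of 10 spots passing on fetal liver sort 2. After scaling, the log2 level was 7.96, 7.79 and 8.70 in bone marrow, against 6.69, 5.77 and 5.97 in fetal liver.

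The mean log2 level of miR-223 was 8.15 ± 0.48 in bone marrow, against 6.14 ± 0.48 in fetal liver (SD, n = 3 each). The difference was 2.00 ± 0.35 (SE, limma, Benjamini-Hochberg adjusted p = 0.00779), or 4.01-fold with a 95% interval of 2.24 to 7.18-fold. No value of this probe was at the floor, and doubling the floor left the difference at 2.00. Without fetal liver sort 2 the difference was 1.82 (limma adjusted p = 0.0220), and without bone marrow sort 3, the highest array, it was 1.73 and no longer called (limma adjusted p = 0.0518).

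The 20-base probe of miR-223 read 79.5, 103 and 112 in bone marrow, against 30.3, 9.87 and 26.9 in fetal liver. It was well above background on the same arrays as the longer probe, and the groups again did not overlap. Its log2 level was 6.22 ± 0.43 in bone marrow, against 4.71 ± 0.70 in fetal liver (SD, n = 3 each). The difference of 1.51 ± 0.41 (SE, limma, adjusted p = 0.0490), 2.85-fold, lies just inside the threshold. It was past it in no fit without bone marrow sort 1, 2 or 3 or without fetal liver sort 2 or 3, where the differences were 1.59, 1.68, 1.27, 1.19 and 1.45 (limma adjusted p between 0.0706 and 0.224). Nor was it past the threshold with a floor of 1 (1.51, limma adjusted p = 0.0931) or with the floor doubled (1.10, limma adjusted p = 0.0760). The intervals of the longer probe (1.15 to 2.86) and of the shorter one (0.52 to 2.51) overlap, and the difference between the probes was not tested.

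**Figure D1:**
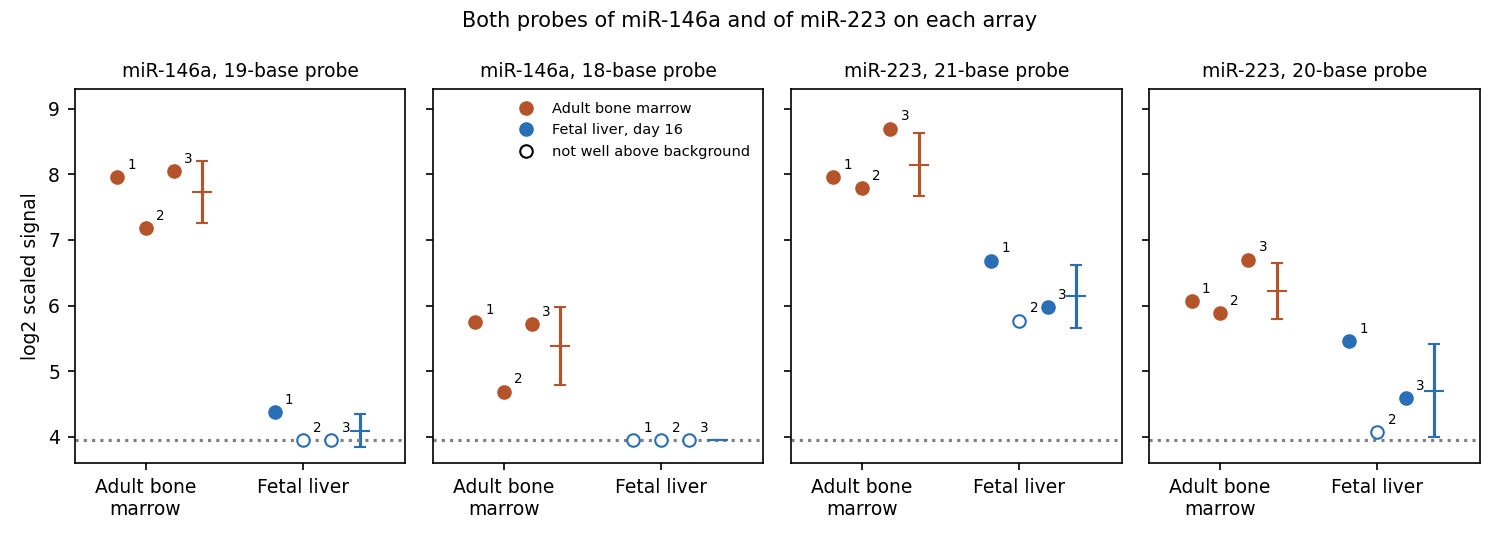
Log2 scaled signal of both probes of miR-146a and of miR-223 on each array, with adult bone marrow left of fetal liver. Points are single arrays numbered by sort, open points are probes not well above background, bars are the mean ± SD (n = 3) and the dotted line is the floor of 3.95. On all 4 probes every bone marrow array lies above every fetal liver array.

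All 4 tested probes of the members were called higher in bone marrow, where 10.7% of the 253 tested probes were (limma, adjusted p under 0.05). All 4 entered the test through the bone marrow arrays and are nested pairs of miR-146a and miR-223. Their number among the calls therefore carries no weight of its own. The count fell to 1 to 3 when single arrays were left out, with 1 without bone marrow sort 3 and 2 without bone marrow sort 1 or fetal liver sort 2. The remaining 10 probes did not reach the detection needed for the test.

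MiR-146b, which shares its seed with miR-146a, had a 19-base probe (mm9 chr19:46417283-46417301) that read 12.7, 18.8 and 14.1 in bone marrow, against 4.85, -13.9 and 3.91 in fetal liver. The tissues were separate, but the signals were at the edge of detection. In bone marrow 5, 10 and 4 of its 10 spots were well above background on sorts 1, 2 and 3, and in fetal liver 0 of 10 on every array, so that 1 bone marrow array counts as detected. The scaled signal was 11.6 ± 1.33 in bone marrow, against -4.35 ± 16.8 in fetal liver (SD, n = 3 each). All 6 values lie under the floor of 15.5, and no fold is given.

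Feature Extraction's own summary over the probes of a miRNA, the total gene signal, called miR-146b detected on all 3 bone marrow arrays and on no fetal liver array. That signal was 9.86, 14.4 and 9.69 in bone marrow, with errors of 2.78, 3.21 and 3.02, against 3.44, -21.7 and 2.09 in fetal liver, with errors of 2.68, 11.1 and 2.89. The 18-base probe (mm9 chr19:46417284-46417301) read 0.51 to 1.43 in bone marrow, against -18.8 to 0.10 in fetal liver, and was well above background on no array. MiR-146b-5p differs from miR-146a-5p at 2 of its 22 bases, and miR-146a was far brighter in bone marrow. Whether miR-146a adds to the signal of the miR-146b probes was not tested.

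MiR-146b*, the other arm of the same hairpin, had 4 nested probes of 14 to 17 bases, all ending at position 46417339 of chromosome 19 in mm9. None was well above background on any array. Their signals ran from -3.46 to -0.37 in bone marrow, against -26.8 to 0.42 in fetal liver, where the lowest values, from -26.8 to -18.4, are those of fetal liver sort 2. That array also had the lowest median over the probes well above background nowhere.

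MiR-511, the arm-unspecified product of the Mrc1 intron, had 4 nested probes of 17 to 20 bases (mm9 chr2, from 14182641 for the longest to a shared end at 14182660) with 5 spots each. The 20-base probe read 18.2, 15.1 and 13.1 in bone marrow, against 18.4, 32.0 and 3.15 in fetal liver, and was well above background on bone marrow sorts 1 and 2 and on fetal liver sort 1. The 19-base probe, the brightest after scaling, read 15.4, 13.0 and 9.12 in bone marrow, against 15.9, 38.8 and 3.56 in fetal liver. The fetal liver arrays held both the highest and the lowest value, so the groups overlapped on both probes.

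The highest miR-511 value, on fetal liver sort 2, was not well above background there, with 0 of 5 spots passing on either probe. On the log2 scale the 19-base probe was at the floor in all 3 bone marrow sorts, against 4.53, 6.05 and the floor in fetal liver. Its difference of -0.89 became -0.29 without fetal liver sort 2, and that of the 20-base probe moved from -0.87 with that array to -0.40 without it. The 18-base and 17-base probes read 4.82 to 11.2 in bone marrow, against 1.96 to 17.7 in fetal liver, and passed on no array. Its total gene signal was 18.5, 17.4 and 11.3 in bone marrow, with errors of 2.10, 2.24 and 2.12, against 20.96, 31.2 and 3.84 in fetal liver, with errors of 2.17, 8.09 and 2.04. By that summary miR-511 was detected on all 3 bone marrow arrays and on fetal liver sorts 1 and 2, and the tissues overlapped. By the spots of its brightest probe it passed on 1 array of each tissue, too few for the test.

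**Figure D2:**
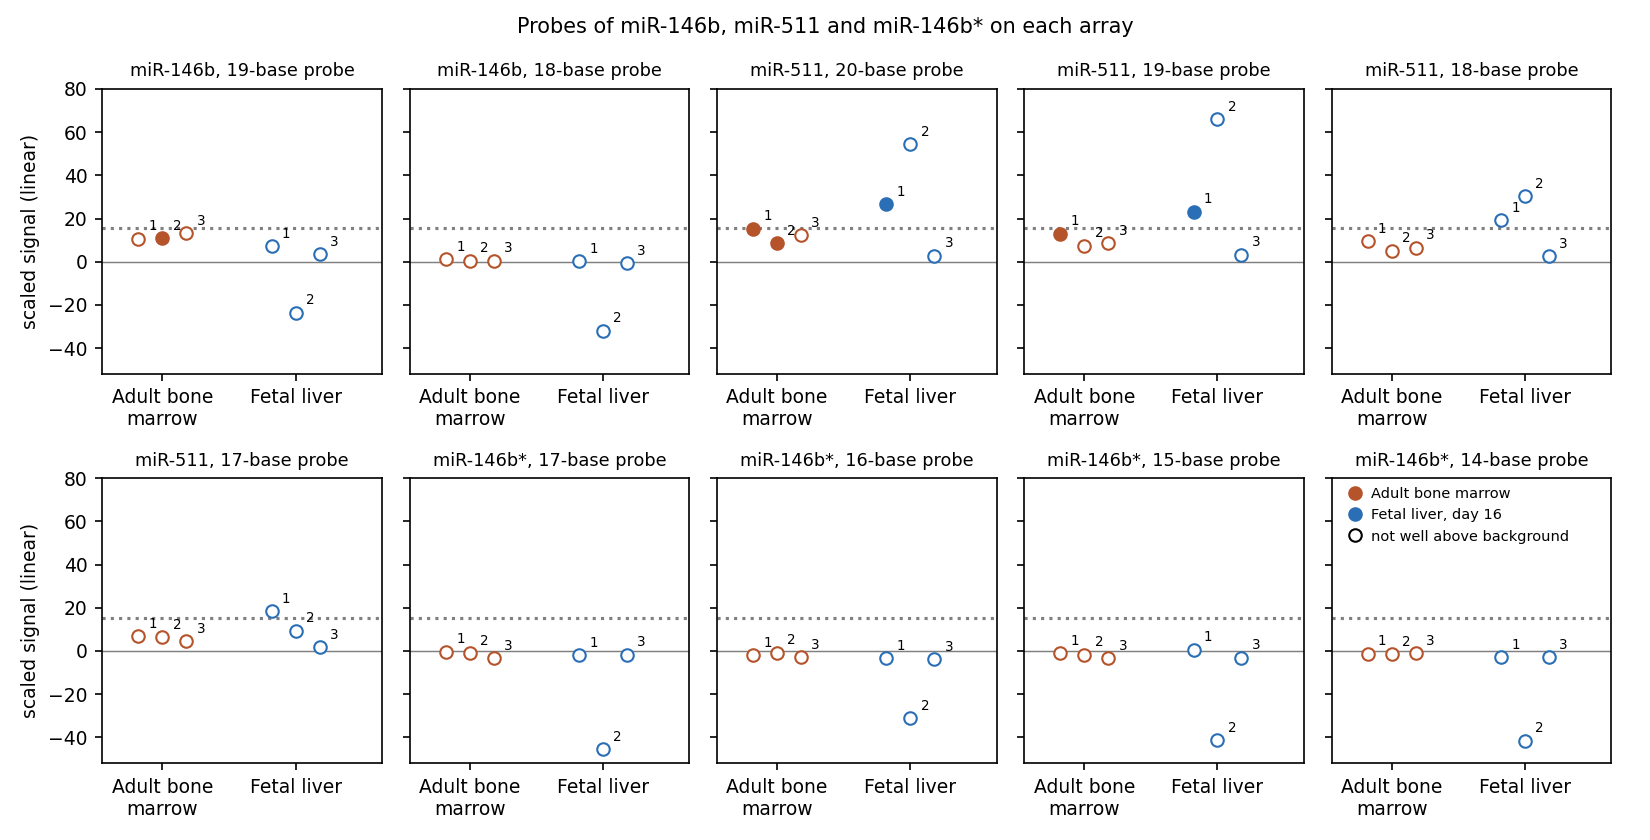
Linear scaled signal of the 10 probes of miR-146b, miR-511 and miR-146b* on each array, with adult bone marrow left of fetal liver. Points are single arrays numbered by sort, open points are not well above background, the dotted line is the floor of 15.5 and the solid line is 0. The bone marrow arrays sit between -3.21 and 15.3, while fetal liver sort 2 has the lowest miR-146b and miR-146b* values and the highest miR-511 values of 3 of the 4 probes.

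On the linear scaled signal, 8 of the 14 member probes had every bone marrow array above every fetal liver array, against 15.2% of all mouse probes. They were both probes of miR-146a, of miR-223 and of miR-146b, and the 14-base and 16-base probes of miR-146b*. The count was 8 without fetal liver sort 2 (16.0% of all mouse probes) and 6 without scaling between arrays (12.9%). Without scaling, the 14-base and 16-base probes of miR-146b* no longer had this order. Among the 7 member probes well above background on at least 1 array it was 5, where 14.4% of the 374 such mouse probes had this order, and without scaling again 5, where 28.3% had it. The 18-base probe of miR-146a and the 19-base probe of miR-146b entered that set through bone marrow arrays alone. The count among these probes therefore carries no weight of its own. Probes of 1 miRNA share their target, so the 8 probes stand for 4 miRNAs, of which miR-146b* was well above background on no array.

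The other tested miRNAs listed for the same cell type or pathway, 5 in number, were not called in either direction. Over all 134 tested miRNAs, 21.6% were called in either direction and 11.2% higher in bone marrow. Of 11 granulocyte and monocyte-linked miRNAs on the array, the 5 members included, 5 were tested, 2 were called higher in bone marrow, namely miR-146a and miR-223, and 0 lower, with a median difference of -0.19. Both called ones entered the test through the bone marrow arrays, so their number carries no weight of its own. The others tested were miR-342-3p at -0.98 ± 0.29 (SE, limma adjusted p = 0.0507), miR-342-5p at -0.78 (limma adjusted p = 0.163) and miR-322 at -0.19 (limma adjusted p = 0.674). MiR-338-3p, miR-338-5p and miR-322* were at the floor on all 6 arrays. The summed scaled level of this list was 726 to 1081 in bone marrow, against 558 to 900 in fetal liver, so the groups overlapped. In fetal liver the brightest of the list was miR-342-3p, with a mean log2 level of 8.68, against 7.70 in bone marrow. It went the other way from miR-146a and miR-223, and 5 of the 11 miRNAs were at the floor on all 6 arrays. The sum is therefore no measure of the list apart from these single miRNAs.

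Of 10 miRNAs listed as responsive to NF-kB or Toll-like receptors, 3 were tested and 1, miR-146a, was called higher, with 0 lower and a median of 0.13. Over all 134 tested miRNAs 11.2% were called higher. MiR-146a entered the test through the bone marrow arrays, so this count carries no weight of its own. MiR-155, which NF-kB also induces in activated lymphocytes and macrophages, averaged 7.10 ± 0.09 in bone marrow and 7.38 ± 0.22 in fetal liver (SD, n = 3 each). Its difference was -0.28 (limma adjusted p = 0.377). MiR-21 averaged 9.84 ± 0.10 in bone marrow and 9.70 ± 0.11 in fetal liver, a difference of 0.13 (limma adjusted p = 0.635). The other 7, among them miR-132, miR-147, miR-9 and both miR-146b arms, were at the floor on all 6 arrays. The summed level was 1231 to 1483 in bone marrow, against 1066 to 1186 in fetal liver. It includes miR-146a, whose mean scaled signal was 220 in bone marrow, against -4.50 in fetal liver. The sum is therefore no measure of the list apart from that member.

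**Figure D3:**
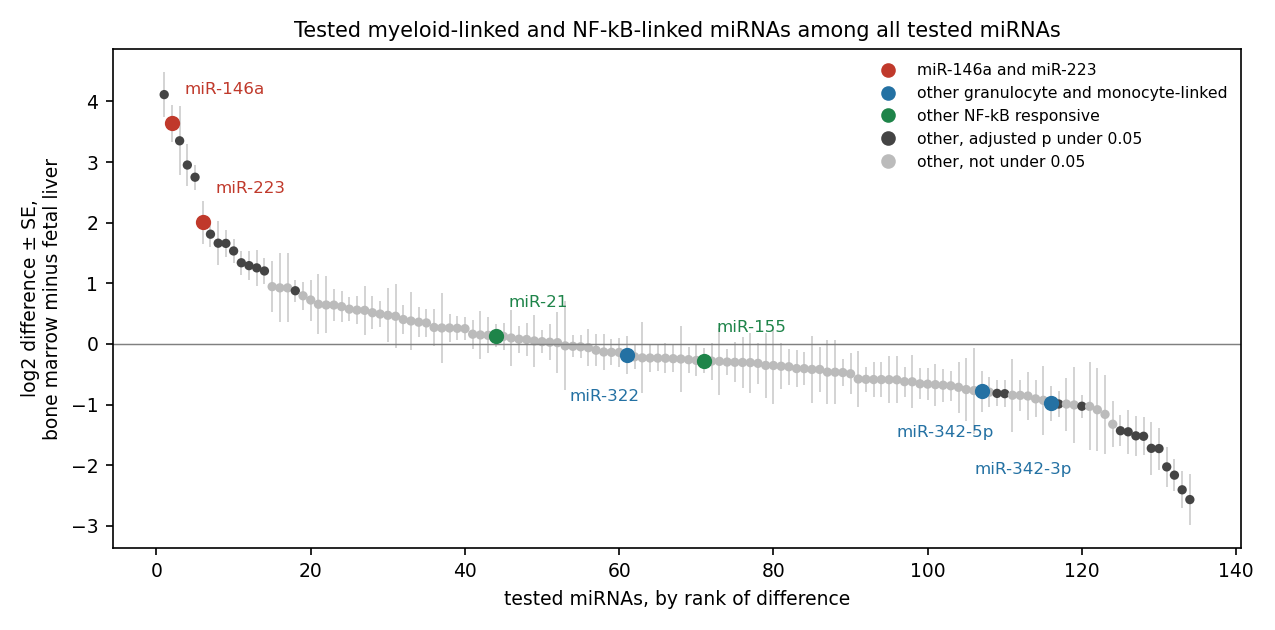
Log2 difference ± SE, bone marrow minus fetal liver, of the 134 tested miRNAs in order of size, with positive values higher in bone marrow. With the reported floor miR-146a is second and miR-223 sixth from the left, while miR-21, miR-322, miR-155, miR-342-5p and miR-342-3p lie between 0.13 and -0.98.

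The surface proteins that define pro-B cells are not measured by a miRNA array, so the sorts were checked on miRNA lists alone. In each sum a miRNA at the floor adds 15.5. A sum is thus not a measured level where many of the list lie at the floor. The counts of calls below stand beside 15 higher and 14 lower in bone marrow over all 134 tested miRNAs. The erythroid list (3 miRNAs, 1 tested) summed to 113 to 173 in bone marrow and 492 to 732 in fetal liver, with miR-451, a red cell miRNA, lower in bone marrow (log2 difference -2.41 ± 0.31 SE, limma adjusted p = 0.00245) and miR-144 at the floor throughout. The lymphoid and B cell list (21 miRNAs, 18 tested, 2 called higher and 3 lower in bone marrow, median -0.41) summed to 7233 to 7920 in bone marrow and 10116 to 10384 in fetal liver. MiR-181a and miR-34a were its higher ones, at 1.25 and 1.66, and miR-18a was lower at -1.73 (limma adjusted p between 0.0128 and 0.0249). The stem and progenitor list (15 miRNAs, 6 tested, 2 called higher and 0 lower, median 0.72) summed to 325 to 355 in bone marrow and 319 to 345 in fetal liver. Of that list, 8 miRNAs were at the floor on all 6 arrays. Its higher ones were miR-125b-5p at 1.81 and miR-99a at 0.88 (limma adjusted p of 0.00213 and 0.0131), both well above background on no fetal liver array, and miR-130a had -1.33 (limma adjusted p = 0.0504). The called ones of this list thus entered the test through the bone marrow arrays, and their count carries no weight of its own.

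The hepatocyte list held miR-122, miR-192 and miR-194, none of them tested. MiR-192 and miR-194 were at the floor on all 6 arrays and miR-122 on 5. The sum was 46.4 in every bone marrow array, made up of floor values alone, and 46.4 to 60.7 in fetal liver. Of 10 endothelial and stromal miRNAs, 8 were at the floor on all 6 arrays and 1, miR-126-3p, was tested (0.15, limma adjusted p = 0.789), with sums of 166 to 173 in bone marrow and 160 to 185 in fetal liver. The part that other cells in the sorts have in the differences of miR-146a and miR-223 was not tested.

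Whether the 2 detected members differed between tissues by the same amount was asked within each array. The log2 level of miR-146a minus that of miR-223 was 0.00, -0.61 and -0.65 in bone marrow sorts 1 to 3, against -2.31, -1.82 and -2.02 in fetal liver sorts 1 to 3. A single array's value means nothing by itself, since probes differ in brightness, but the scale factor of an array cancels in it, except where a value is at the floor. The groups did not overlap, with means of -0.42 ± 0.37 in bone marrow and -2.05 ± 0.24 in fetal liver (SD, n = 3 each). The difference of 1.63 gave p = 0.1 in a two-sided exact permutation test, the smallest that 3 against 3 arrays allow, so it does not pass 0.05. MiR-146a was at the floor on fetal liver sorts 2 and 3, and the difference was 4.27 with a floor of 1 and 0.78 with the floor doubled. On the second, dimmer probe of each miRNA it was -0.077 (exact permutation p = 0.9), where miR-146a is at the floor on every fetal liver array.

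The spread between bone marrow sorts depended on the scaling. The SD over the 3 bone marrow sorts was 0.48 for miR-146a and 0.48 for miR-223, above those of 114 and 115 of the 134 tested miRNAs, whose median was 0.16. Without scaling the SDs were 0.12 and 0.30, above those of 5 and 52 miRNAs, with a median of 0.33. Under scaling on all mouse probes, quantile normalisation and the deposited log2 values, miR-146a was above 71, 114 and 124 miRNAs and miR-223 above 124, 120 and 129. Spots of 1 array differed less: the CV of the 19-base probe of miR-146a over its spots was 1.97% to 4.81% in bone marrow, and that of the 21-base probe of miR-223 was 3.52% to 5.04%. In fetal liver the SD was 0.25 for miR-146a, with 2 values at the floor, and 0.48 for miR-223, against a median of 0.49.

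Around the tissue means, miR-146a and miR-223 deviated the same way in some sorts and in opposite ways in others. In bone marrow sort 1 miR-146a was 0.23 above its mean and miR-223 at -0.19, in sort 2 they were at -0.55 and -0.36, and in sort 3 at 0.32 and 0.55. In fetal liver sort 1 they were at 0.29 and 0.54, in sort 2 at -0.14 and -0.37, and in sort 3 at -0.14 and -0.17, where the miR-146a values of sorts 2 and 3 are the floor. Both members of an array share its scale factor. Without scaling, bone marrow sorts 1 to 3 had 0.09, -0.14 and 0.04 for miR-146a beside -0.33, 0.06 and 0.27 for miR-223, opposite in sorts 1 and 2.

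With each array scaled on all mouse probes, the bone marrow deviations were -0.12, -0.26 and 0.38 for miR-146a beside -0.54, -0.07 and 0.61 for miR-223, the same way in all 3 sorts. In the authors' deposited log2 values they were 0.12, -0.36 and 0.25 beside -0.25, -0.20 and 0.44. Bone marrow sort 3 was above both means under each of these scalings, and the direction in sorts 1 and 2 changed with the scaling. No correlation is given, since the 6 arrays form 1 cluster per tissue and each holds 3.

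**Figure D4:**
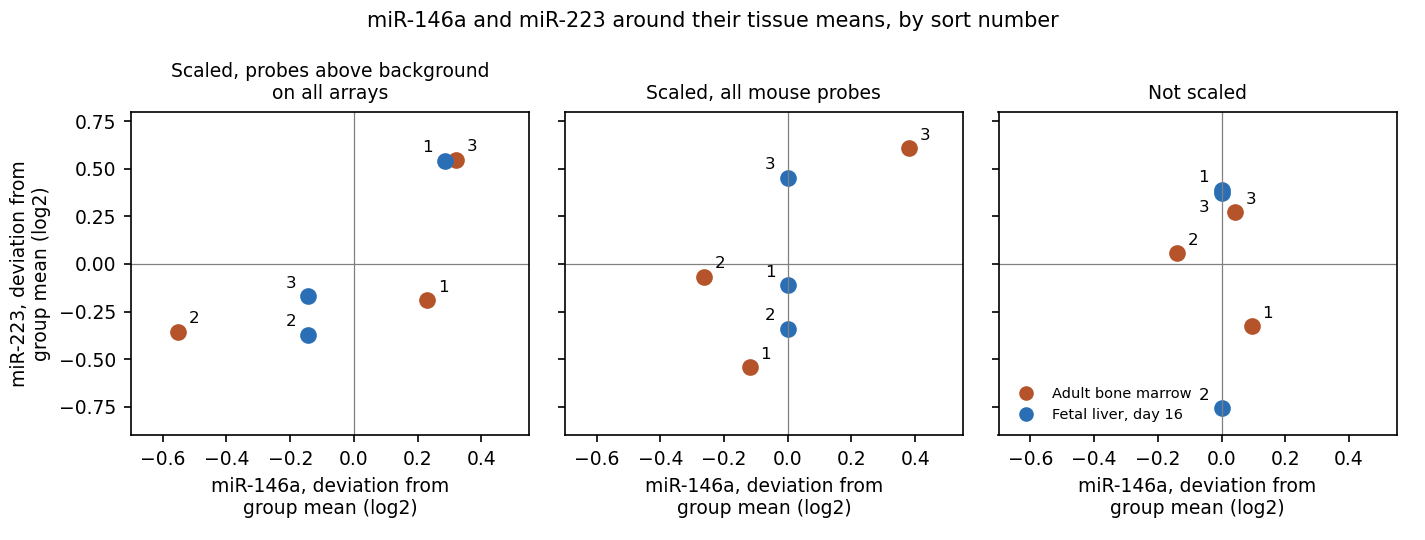
Deviation of miR-223 (vertical, log2) against that of miR-146a (horizontal, log2) from the mean of their tissue, 1 point per array numbered by sort, under 3 scalings. Bone marrow sort 3 is above 0 on both axes in each panel, and in the panels for all mouse probes and for no scaling every fetal liver value of miR-146a is the floor, hence at 0.

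The tested miRNAs whose profile over the 6 arrays was most like that of miR-146a, by root mean square distance of mean-centred log2 levels, were let-7b (0.42), let-7d (0.51), let-7i (0.58), let-7c (0.60) and miR-223 (0.85). Their differences, bone marrow minus fetal liver, were 4.11 for let-7b, 2.75 for let-7d, 2.95 for let-7i and 3.35 for let-7c, beside 3.64 for miR-146a. For miR-223 the nearest were miR-125b-5p (0.28), miR-34a (0.37), miR-98 (0.37), let-7g (0.40) and let-7d (0.47). Their differences were 1.81 for miR-125b-5p, 1.66 for miR-34a, 1.53 for miR-98 and 1.66 for let-7g, beside 2.00 for miR-223. MiR-125b-5p was well above background on no fetal liver array and miR-98 and let-7b on 1 of 3, so their differences are measured against values at or near the floor.

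Under other processing, miR-146a differed by 1.43 to 6.27 and miR-223 by 1.23 to 2.77, higher in bone marrow in all 22 alternatives run for each. The smallest difference of miR-146a came from its second probe and that of miR-223 from normexp background correction with an offset of 50. The authors' deposited log2 values gave 2.69 for miR-146a and 1.60 for miR-223 (limma adjusted p of 1.19e-04 and 0.00390). Leaving out the scaling moved the median of all tested miRNAs up by 0.76, and the differences were then 4.11 for miR-146a and 2.77 for miR-223 against a median of 0.51.

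**Figure D5:**
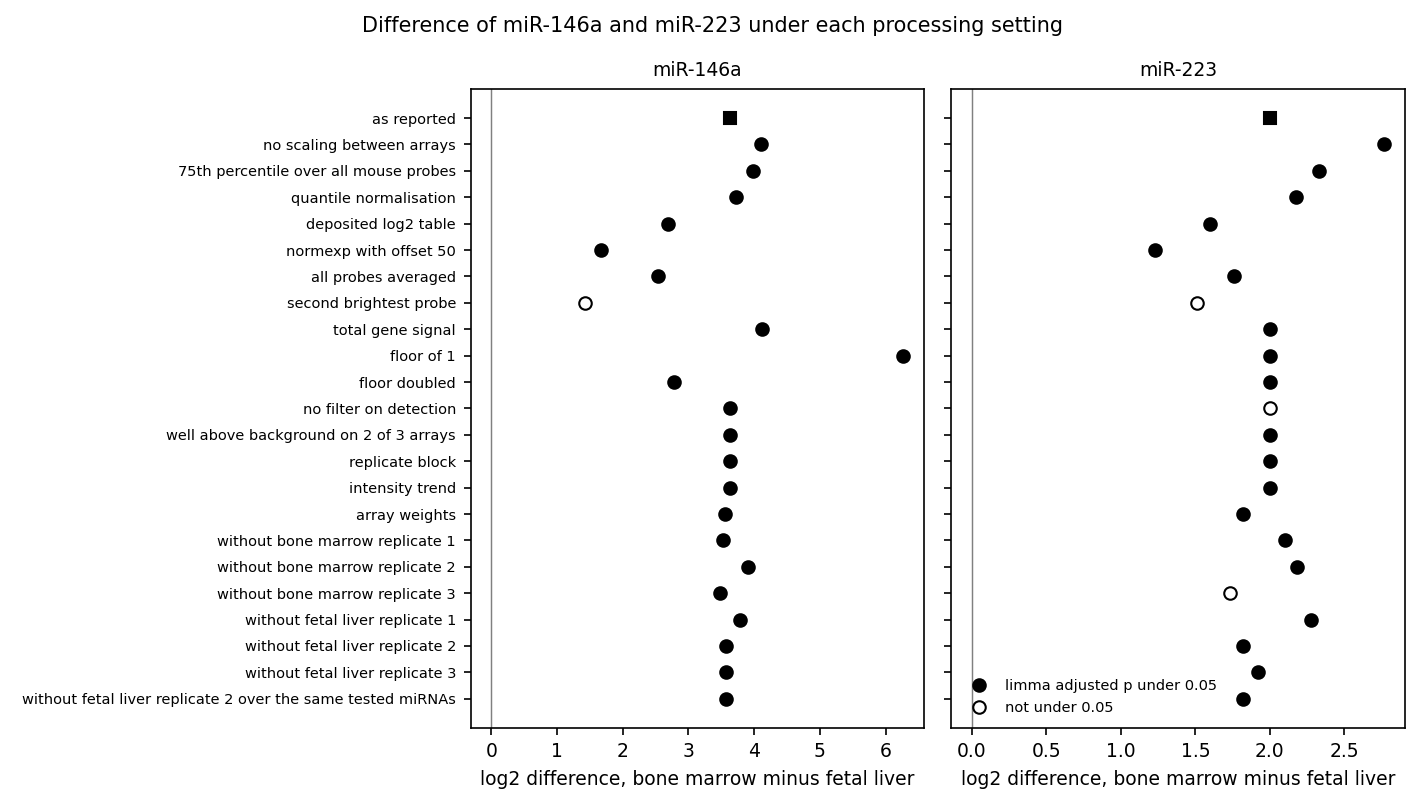
Log2 difference, bone marrow minus fetal liver, of miR-146a and miR-223 as reported (square) and under 22 alternatives (circles), filled where the limma adjusted p is under 0.05. All values are above 0, and the open circles are 1 for miR-146a and 3 for miR-223.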

How the data were processed

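MiRNAs were measured on one-colour Agilent arrays, with signals read by Feature Extraction 9.5.3.1 per the file headers. The deposited scanner tables give for each spot an intensity with background subtracted on a linear scale, which can be negative, with flags of 0 or 1, and no scaling between arrays. The authors also deposited log2 values per spot whose 6 columns share 1 distribution (4.66 to 15.79); no source used here gives their background correction, and they served as an alternative. Per-sample columns left unused numbered 0. The number of arrays limits the precision.

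Spots of a probe were averaged without outliers, and a probe was well above background where over 50% of its spots were. Arrays were scaled on the 75th percentile of the 82 probes well above background on all 6, floored at the median of the 5th percentiles of scaled signals well above background, and put on the log2 scale. A miRNA is its brightest probe. Tested were miRNAs (23.6%), and separately probes, well above background on all 3 arrays of a tissue, in limma 3.58.1 under R 4.3.3 (lmFit, eBayes, two-sided, Benjamini-Hochberg), after a check on simulated data. P-values measure the spread between sorts, and values at the floor can narrow that spread.

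Named are all members, the 5 nearest profiles of each tested member, and up to 3 tested miRNAs of each of 7 marker lists. MiR-338, miR-322*, miR-132, miR-147, miR-9, miR-144 and the hepatocyte miRNAs were named as list members at the floor or untested. MiR-92a was named as the brightest of its list. The members and lists were chosen with earlier results of these data known. Alternatives covered scaling, background correction, probe summary, floor, filter, the replicate number as a block, trend, array weights, the deposited table and single arrays left out. The labels name no pairing of the samples by replicate number. Deviations of same-numbered arrays correlated at 0.17, -0.13 and -0.24, but 3 arrays per tissue are too few for these to decide on pairing. Figures were drawn with matplotlib 3.10.9.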

Additional observations from a re-analysis of the deposited data

How the results depend on the processing

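The count of called miRNAs, 29 (15 higher and 14 lower in bone marrow, 44 at an unadjusted p under 0.05), was 13 with the second brightest probe, 18 with a filter on all 6 arrays and 12 with no filter on detection, and 11 to 42 with single arrays left out. It was 19, 16 and 11 without bone marrow sorts 1, 2 and 3. Scaling moved the split of higher against lower calls, to 20 against 4 without scaling, 15 against 6 on all mouse probes, 17 against 9 with quantile normalisation and 18 against 11 in the deposited table. These scalings moved the median difference up by 0.76, 0.32, 0.22 and 0.23. MiR-146a kept its call except with the second brightest probe (1.43, limma adjusted p = 0.0674), and ran from 3.48 to 3.91 with single arrays left out. It gave no value under the filter on all 6 arrays, nor did miR-223. MiR-223 lost its call with the second brightest probe (1.51, limma adjusted p = 0.129), with no filter on detection (2.00, limma adjusted p = 0.159, over 567 miRNAs) and without bone marrow sort 3, and ran from 1.73 to 2.28 with single arrays left out. Of the 4 called member probes, 3 were called with a floor of 1, 2 with the floor doubled and 1 to 3 with single arrays left out. The change between tissues of miR-146a minus miR-223 was 0.43 to 4.27 under the alternatives other than the second brightest probe (-0.077, exact permutation p = 0.9), and 1.42 to 1.75 with single arrays left out. With the replicate number as a block, which the design does not call for, the differences stayed 3.64 (limma adjusted p = 7.02e-04) and 2.00 (limma adjusted p = 0.0117), with 23 called miRNAs. Leaving out fetal liver sort 2 and leaving out the scaling were added after seeing the data for the count of probes with separated tissues, as was the bound of the 18-base probe of miR-146a without that sort (2.69-fold). The cause of these changes was not tested. High noise and few spots well above background on fetal liver sort 2 limit what can be read there.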
